A study of Rattus norvegicus with 10 samples.

Results

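The 10 genes described here (Ttr, Kl, Folr1, Clic6, Aqp1, Otx2, Enpp2, F5, Slc4a5 and Prlr) are known for high expression in the choroid plexus. They were taken by name from the deposited expression tables, and all 10 were found among the 17168 gene symbols. The rule names the genes outright and uses no measured value, but the genes were chosen with earlier results of these data known. RNA had been sequenced from 10 left hippocampi, each of a female TgF344-AD rat; these rats carry transgenes that make them a model of Alzheimer's disease. The untreated group of 5 rats ate ordinary rodent chow. The RG2833 group of 5 rats ate chow with RG2833, an inhibitor of the histone deacetylases HDAC1 and HDAC3, at 750 mg per kg of chow from 5 months of age for 6 months. All animals were killed at 11 months, and no wild-type rats were among them. Animals are named below by group and by the number in their label. The labels do not say whether the same number links an untreated animal to an RG2833 animal. The labels describe 1 library per rat, so p-values measure the spread between these rats.

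The choroid plexus is a folded epithelium inside the brain's ventricles that secretes cerebrospinal fluid. It lies against the hippocampus along the choroid fissure, and it is a separate tissue that can come away with the hippocampus at dissection. Its epithelial cells export transthyretin, the product of Ttr and a carrier of thyroid hormone and retinol, and move water, bicarbonate and folate into the fluid. Otx2 encodes a homeobox transcription factor that these cells need, and Kl, Folr1, Aqp1, Slc4a5, Clic6, F5 and Prlr encode receptors, channels, transporters and a clotting factor found in them. Enpp2 encodes autotaxin, a secreted enzyme that makes lysophosphatidic acid, and myelinating oligodendrocytes also express it.

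The promoters of the genes on which the results turn are shown here: Ttr has the largest animal-to-animal difference, Aqp1 has the only motif found, and Prlr is the gene whose pattern differs from the rest. Each line gives the 250 bases before an annotated start in RefSeq (rat build GRCr8), on the plus strand, with capitals marking the letters TATAAA.
Ttr, chr18:12218508-12218757: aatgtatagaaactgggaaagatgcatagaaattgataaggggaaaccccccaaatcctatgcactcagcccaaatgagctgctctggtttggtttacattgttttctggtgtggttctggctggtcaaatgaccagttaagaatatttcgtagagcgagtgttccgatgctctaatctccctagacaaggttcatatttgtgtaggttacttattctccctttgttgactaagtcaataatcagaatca
Aqp1, chr4:85812534-85812783: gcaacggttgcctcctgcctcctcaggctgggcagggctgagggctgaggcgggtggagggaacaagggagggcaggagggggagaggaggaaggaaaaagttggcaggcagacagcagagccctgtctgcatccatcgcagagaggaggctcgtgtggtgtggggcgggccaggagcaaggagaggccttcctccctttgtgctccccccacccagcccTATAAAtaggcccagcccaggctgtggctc
Prlr, chr2:60861515-60861764: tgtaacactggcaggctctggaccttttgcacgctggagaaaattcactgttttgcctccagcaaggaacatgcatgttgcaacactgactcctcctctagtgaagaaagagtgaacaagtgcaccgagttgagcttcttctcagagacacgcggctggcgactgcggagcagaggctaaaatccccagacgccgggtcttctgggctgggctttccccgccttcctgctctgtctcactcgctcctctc
Prlr, chr2:60909409-60909658: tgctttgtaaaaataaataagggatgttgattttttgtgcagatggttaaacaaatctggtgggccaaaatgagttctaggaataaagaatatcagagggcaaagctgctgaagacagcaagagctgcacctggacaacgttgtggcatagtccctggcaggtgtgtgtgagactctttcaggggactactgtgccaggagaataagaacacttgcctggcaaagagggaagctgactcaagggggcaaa
The RefSeq promoter table matched 6 of the 10 genes by symbol, with 7 start sites because Prlr has a pair. Both strands were searched for TAATCC (a core bound by OTX and other homeobox factors, in 6.34% of 33469 promoters), TGTTTAC (forkhead, 3.21%), TGACGTC (cyclic AMP response element, 2.80%) and CAGCTG (an E-box, 12.0%). None of these sets of letters was in the 7 windows. TATAAA, the TATA box letters, was found in the Aqp1 window alone, at bases -30 to -25 from the start, against 12.9% of all promoters. It was added to the search after the windows had been read.

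Levels are given in CPM, which relates a count to the size of its library, with library sizes adjusted by TMM (trimmed mean of M values, which assumes that most genes do not change), or as plain counts. Gene lengths were not used, so levels are compared between animals for 1 gene and never between genes. Total counts ran from 8764245 in untreated replicate 1, the lowest, to 11311652. A count of 3, taken as the floor, equalled 0.268 to 0.343 CPM. Ribosomal RNA loci held 2.70 to 5.36% of counts in the untreated and 1.13 to 1.96% in the RG2833 libraries, so this share separated the groups. Its part in the results below was tested only as a covariate for the treatment comparison. The 12 marker genes of hippocampal neurons in the table had a summed level of 8240 to 13280 CPM, most of it from Snap25, Nrgn and Slc17a7, while Lct lay at or below 0.314 CPM in every library.

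One library stood apart. Untreated replicate 1 had a Ttr level of 2381 CPM from 20810 counts, whereas the other 9 animals had 3.80 to 38.4 CPM. Ttr alone made up 0.237% of that animal's counts (95% exact binomial interval 0.234 to 0.241%, counting error only). The pooled level of the other 9 animals was 11.3 CPM, which gave a ratio of 210 (95% counting interval 197 to 224). Ttr was not alone: 9 of the 10 genes had their highest level in this animal, and Prlr did not. For comparison, untreated replicate 1 was the highest animal for 16% of 13359 genes with at least 10 counts in all. The treatment comparisons are given with and without this library.

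**Figure D1:**
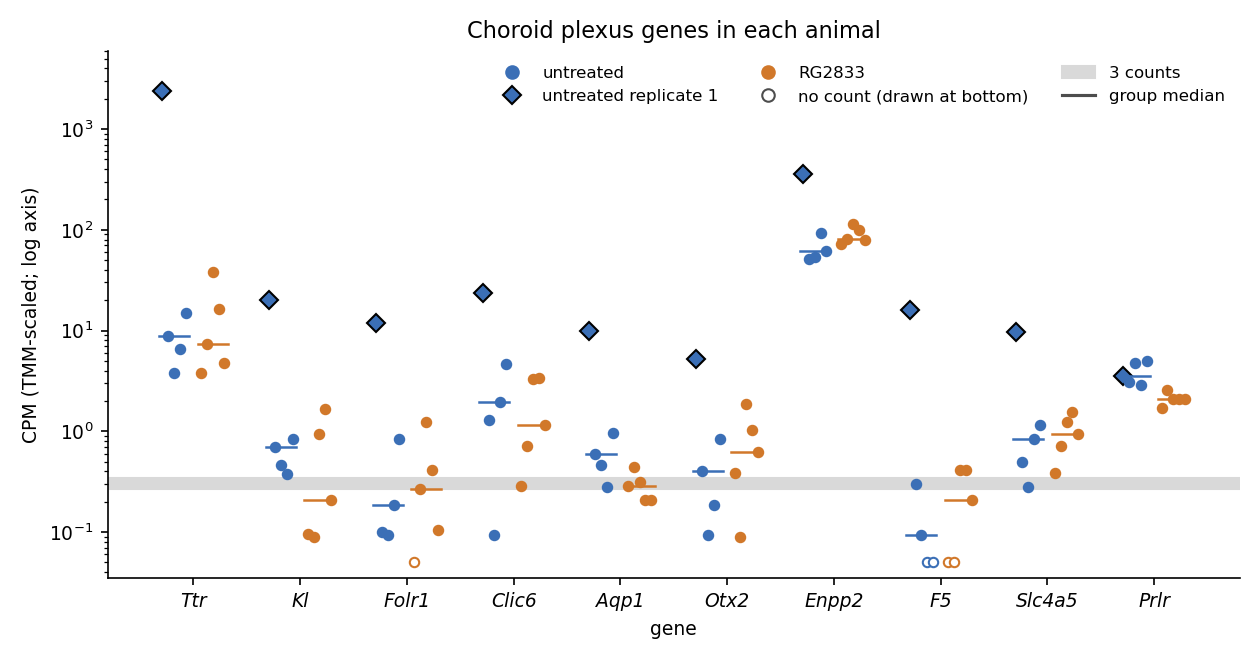
Level of each of the 10 choroid plexus genes in each animal, in TMM-scaled CPM on a log axis, with bars at the group medians and open symbols for animals without a count. Untreated replicate 1 (diamonds) lies above every other animal for 9 genes, and for Prlr the 5 untreated animals all lie above the 5 RG2833 animals.

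Among the secreted proteins, Ttr counts in untreated replicates 1 to 5 were 20810, 88, 41, 71 and 140, and in RG2833 replicates 1 to 5 they were 40, 82, 372, 158 and 46. Without untreated replicate 1 the groups overlapped, with RG2833 replicates 3 and 4 above every remaining untreated animal and untreated replicate 5 next. F5, which encodes coagulation factor V, had 141 counts in untreated replicate 1. Its counts in untreated replicates 2 to 5 were 3, 1, 0 and 0, and in the RG2833 animals they were 0, 0, 4, 4 and 2. F5 was therefore at or below the floor in 7 of the other 9 animals and close to it in the remaining pair, and its ratio of 106 (60.8 to 198) over the pooled other animals rests on 14 counts in the denominator.

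Enpp2 was far above the floor in every animal. Its levels in untreated replicates 1 to 5 were 359, 51.5, 54.3, 93.2 and 62.1 CPM, and in the RG2833 animals they were 72.6, 81.8, 113, 100 and 79.0 CPM. Untreated replicate 1 was the highest and the other 9 animals stayed within 2.20-fold of each other, and the ratio was 4.58 (4.39 to 4.77), below those of 8 of the other 9 genes. The 10 oligodendrocyte markers, which do not include Enpp2, were also all highest in untreated replicate 1, with a summed level of 18383 CPM against 6027 to 13103 CPM in the others. Enpp2 per 1000 CPM of that sum was 19.5 CPM in untreated replicate 1 and 7.11 to 10.3 CPM in the other animals. Over those 9 animals the log2 Enpp2 level followed the log2 oligodendrocyte sum (Pearson r = 0.93, two-sided exact permutation p = 8.54e-04, adjusted p = 0.00427; Spearman rho = 0.88, p = 0.00308, adjusted p = 0.0202), a relation computed after the values had been seen. Its r was 0.96 without untreated replicates 3 and 5, the animals farthest from the median sum.

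Receptors at the border of blood and fluid form the next group. Kl encodes klotho, a co-receptor for fibroblast growth factor 23, and its counts were 176, 7, 5, 4 and 8 in the untreated and 1, 1, 9, 16 and 2 in the RG2833 animals. Folr1 encodes the folate receptor that carries folate into the fluid, and its counts were 104, 1, 1, 2 and 8 in the untreated and 0, 3, 12, 4 and 1 in the RG2833 animals. For both genes the level in untreated replicate 1 was over that of every other animal, and the remaining counts were too low to order most animals. The ratio to the other 9 animals was 34.8 (25.5 to 48.2) for Kl and 34.1 (22.7 to 52.3) for Folr1, intervals that overlap.

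Among the channels and transporters, Clic6, a member of the chloride intracellular channel family, had 23.6, 1.30, 0.0927, 1.95 and 4.65 CPM in the untreated animals. In the RG2833 animals it had 0.286, 0.714, 3.31, 3.41 and 1.15 CPM. Even without untreated replicate 1, its untreated animals ran from a single count to 44 counts, and the groups overlapped. Aqp1, the apical water channel, had 87 counts in untreated replicate 1 and 2 to 9 in the others. The sodium bicarbonate cotransporter gene Slc4a5 had 85 counts against 3 to 15, and the transcription factor gene Otx2 had 46 counts against 1 to 18. The ratio to the pooled other animals was 24.0 (16.2 to 36.1) for Aqp1, 13.0 (10.5 to 16.0) for Clic6, 11.7 (8.50 to 16.2) for Slc4a5 and 8.93 (5.89 to 13.5) for Otx2.

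Prlr, the prolactin receptor gene, did not follow the others. Its levels were 3.55, 3.10, 4.73, 2.89 and 4.97 CPM in the untreated and 1.72, 2.59, 2.07, 2.07 and 2.09 CPM in the RG2833 animals. Untreated replicate 1 sat in the middle of its group, and its ratio to the other 9 animals was 1.22 (0.810 to 1.77), an interval that includes 1. Prlr was also the only one of the 10 genes with fractional estimated counts, which were rounded.

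The folds were not equal across genes. Over the 10 genes their median was 18.5, beside 1.00 over all genes, and they ran from 1.22 for Prlr to 210 for Ttr. Counts per Ttr count restate these folds and are given as a description, since Ttr had the largest of them. Clic6 gave 9.90 counts per 1000 Ttr counts in that animal and 24.4 to 314 in the others (median 148). Kl gave 8.46 against 12.2 to 122 (median 56.3), and Slc4a5 gave 4.08 against 32.3 to 196 (median 94.9). Folr1 (5.00) and F5 (6.78) lay within the range of the other animals, which reached down to 0 where no count was seen.

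**Figure D2:**
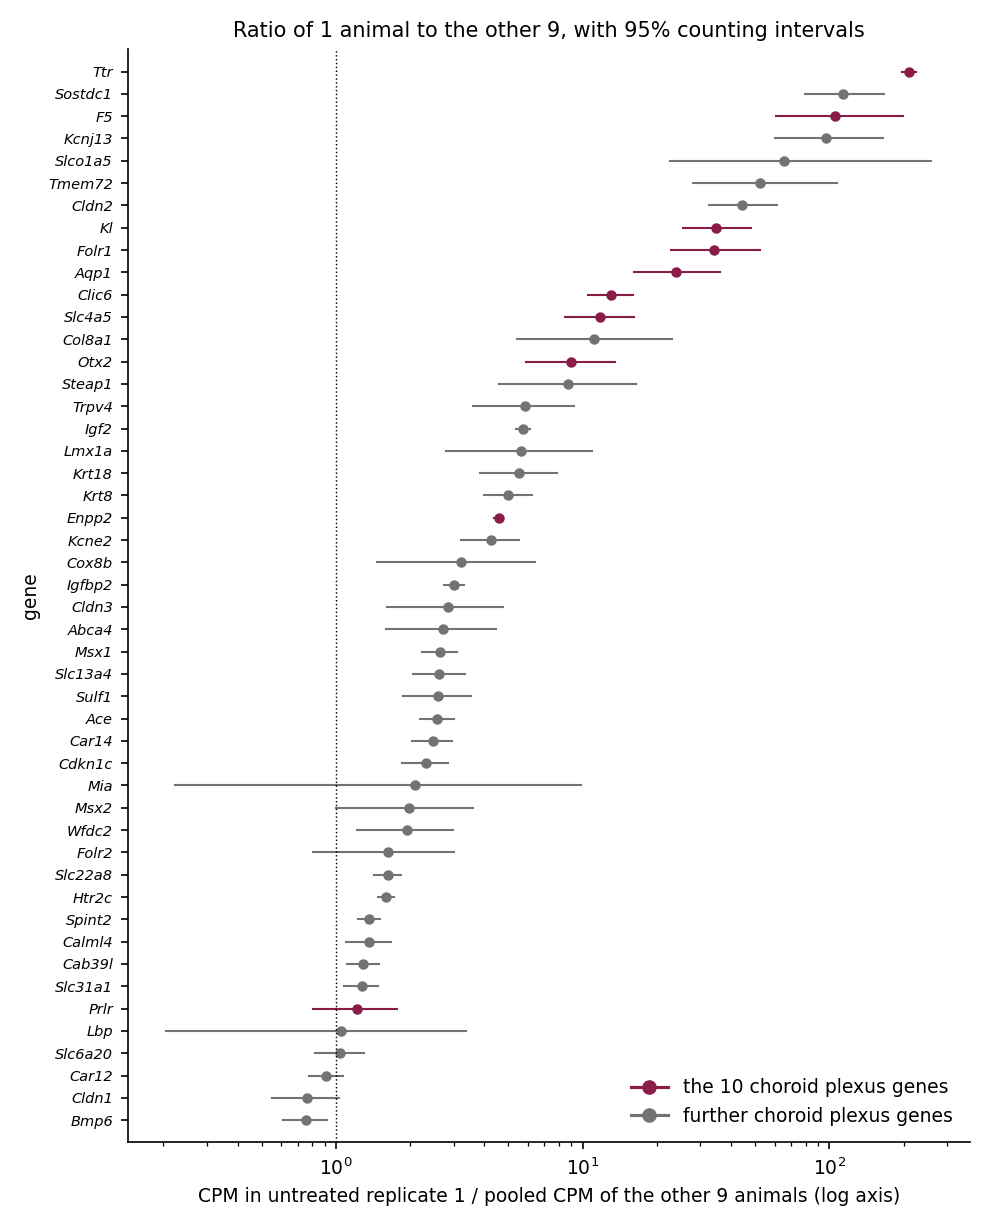
CPM in untreated replicate 1 divided by the pooled CPM of the other 9 animals (log axis) for the 10 choroid plexus genes and for 38 further genes of the epithelium with at least 10 counts, with 95% counting intervals. The ratios run from below 1 for Bmp6 to 210 for Ttr, and 1 is marked by the dotted line.

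Other genes of the choroid plexus epithelium, from a list of 46 of which 39 were in the table, were set beside the 10. The list was chosen with earlier results of these data known, so it is no independent check. Of 38 with at least 10 counts, 27 were highest in untreated replicate 1, beside 16% of all genes with that many counts. Over these 38 the median ratio to the other 9 animals was 2.61. Sostdc1, which encodes a secreted antagonist of BMP and Wnt signalling, had a ratio of 113 (79.7 to 166). The ratio was 96.5 (60.0 to 164) for the potassium channel gene Kcnj13, 52.4 (27.9 to 107) for Tmem72 and 44.2 (32.4 to 61.2) for the claudin gene Cldn2. Kcne2 had a ratio of 4.23 (3.22 to 5.52), and Calml4 had one of 1.36 (1.10 to 1.67). The ratio lay below 1 for Bmp6 at 0.754 (0.610 to 0.925), and for Cldn1 at 0.762 (0.550 to 1.03) and Car12 at 0.916 (0.779 to 1.07) the interval included 1. Genes that were at least 4-fold above the highest other animal, with at least 10 counts, numbered 22 in untreated replicate 1, or 0.128% of all genes. Of these 22, 7 were among the 10 genes (Ttr, F5, Kl, Aqp1, Folr1, Slc4a5 and Clic6) and 7 were on the further list. Untreated replicate 5 had 2 such genes, neither from these lists, and the other 8 animals had 0.

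Markers of other tissues that adjoin the hippocampus were summed in the same way. Of 14 ependymal markers 9 were highest in untreated replicate 1, with a median ratio of 1.89 to the other 9 animals and the highest for Dynlrb2, at 6.55 (4.41 to 9.64). The summed level of the 14 was 2316 CPM against 1766 to 3030 CPM, but S100b alone, at a ratio of 1.00, gave 1995 CPM of it. Without S100b and Pltp, left out after the values had been seen, the remaining 12 summed to 106 CPM against 54.8 to 80.8 CPM. The meningeal and fibroblast markers summed to 547 CPM against 267 to 414 CPM, with 4 of 17 highest in this animal and a median ratio of 1.26. Ptgds alone gave 371 CPM of that sum, and without it, left out after the values had been seen, the other 16 summed to 176 CPM against 130 to 217 CPM. The thalamus and habenula markers summed to 93.7 CPM against 35.6 to 65.4 CPM, with 2 of 8 highest and a median ratio of 1.09. Prkcd (2.80), Calb2 (2.18) and Slc17a6 (1.45, 1.21 to 1.72) had raised values in that sum, whereas Tcf7l2 (1.17) and Lef1 (1.02) had ratios whose intervals included 1. Of the markers with fewer counts, Gpr151 had 0 counts in this animal and 24 in the other 9, and Chrnb4 had a ratio of 0.827 (0.163 to 2.61) and Chrna3 one of 0.476 (0.0115 to 2.95), which rest on 3 counts and 1 count. Of 12 hippocampal neuron markers, 0 were highest in this animal, 3 were lowest in it (Camk2a, Fibcd1 and Zbtb20) and the median ratio was 0.906. Camk2a, the gene of a synaptic kinase, had a ratio of 0.483 (0.469 to 0.497), and Fibcd1 had 0.372 (0.346 to 0.400). Prox1 at 0.291 (0.238 to 0.352) and Wfs1 at 0.298 (0.277 to 0.321) were lower still, although their levels lay within the range of the other animals. Other markers of the list went the other way, with ratios of 1.90 (1.60 to 2.24) for Grp and 1.15 (1.14 to 1.16) for Snap25, and of 1.05 for Neurod6 and Cck. In such bulk tissue more cells of a type and more RNA per cell cannot be told apart, and the part of these markers in the levels of the choroid plexus genes was not tested.

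**Figure D3:**
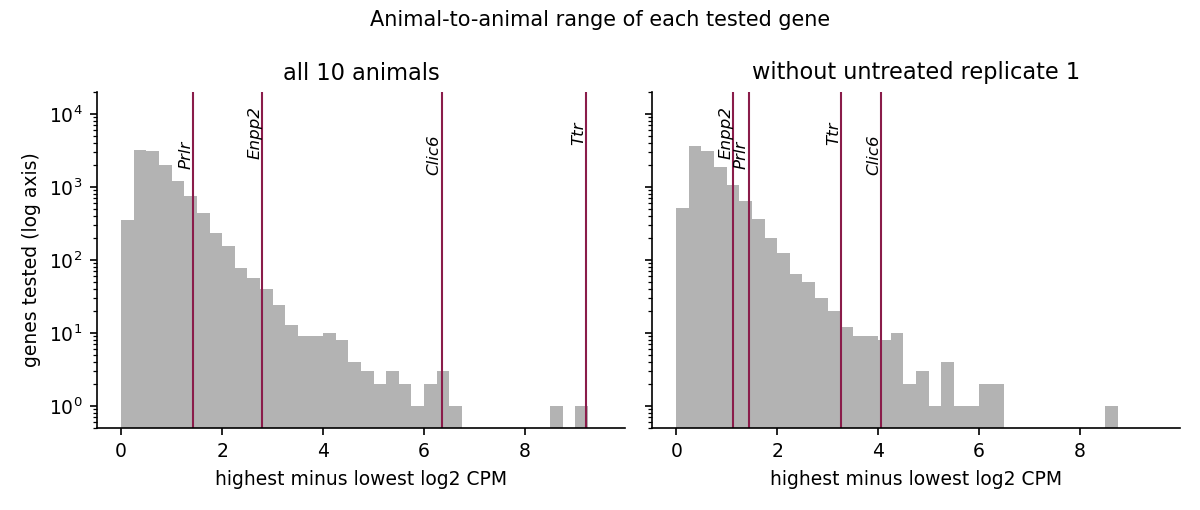
Distribution over the tested genes of the range of log2 CPM (highest minus lowest animal), for all 10 animals and without untreated replicate 1, with genes counted on a log axis. Lines mark the 4 choroid plexus genes that passed the filter: Ttr has the widest range of all genes with 10 animals and lies 64th with 9.

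With all 10 animals, the log2 CPM of Ttr spanned 9.22, the widest range of 11791 genes that passed the filter on low counts. The median gene spanned 0.67 and the 95th percentile was 1.82. Clic6 spanned 6.35 (rank 5), Enpp2 2.80 (rank 127) and Prlr 1.43 (rank 1282). The remaining 6 genes did not pass the filter, and their ranges are not ranked. Without untreated replicate 1, Ttr still spanned 3.27 (rank 64) and Clic6 4.06 (rank 34), both beyond the 95th percentile of 1.72, whereas Enpp2 and Prlr did not exceed it. The remaining spread of Ttr was present inside the RG2833 group, where it spanned 3.27 and ranked 11.

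Smaller differences were seen among the other 9 animals. RG2833 replicate 3 had a Ttr level 4.73 times the pooled level of the other 8 (95% counting interval 4.15 to 5.38), a Folr1 level 5.08 times (2.26 to 10.9) and an Otx2 level 4.23 times (2.26 to 7.65). Its Clic6 level was 2.02 times (1.33 to 2.99) that of the others, and its Aqp1 count was 3, at the floor. In RG2833 replicate 4 the Kl ratio was 3.67 (1.90 to 6.75), and in untreated replicate 5 the Clic6 ratio was 3.13 (2.17 to 4.46). Untreated replicate 1 exceeded RG2833 replicate 3 by 61.9-fold for Ttr (55.9 to 68.8), 7.12-fold for Clic6 (4.89 to 10.7) and 2.83-fold for Otx2 (1.61 to 5.18).

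Over the 9 animals, 5 genes varied with Ttr on the log2 scale by Pearson's r and 3 of them also by Spearman's rho (two-sided exact permutation tests, Benjamini-Hochberg adjusted over 10 relations, with the Enpp2 relation above among them). Folr1 had Pearson r = 0.92 (p = 4.91e-04, adjusted p = 0.00427) and Spearman rho = 0.87 (p = 0.00451, adjusted p = 0.0202). Clic6 had r = 0.82 (p = 0.00686, adjusted p = 0.0229) and rho = 0.85 (p = 0.00607, adjusted p = 0.0202). Slc4a5 had r = 0.76 (p = 0.0172, adjusted p = 0.0343) and rho = 0.82 (p = 0.0108, adjusted p = 0.0269). For Otx2, r was 0.79 (p = 0.0102, adjusted p = 0.0256) and rho 0.73 (p = 0.0311, adjusted p = 0.0614), and for Kl, r was 0.72 (p = 0.0273, adjusted p = 0.0455) and rho 0.72 (p = 0.0369, adjusted p = 0.0614). Without RG2833 replicates 3 and 4, the animals farthest from the median Ttr level, r was 0.86 for Folr1, 0.87 for Clic6, 0.68 for Slc4a5 and 0.61 for Kl, and it fell to 0.45 for Otx2, whose relation rests on those animals. The relation was not detected for F5 (r = 0.54, p = 0.129; rho = 0.51, p = 0.168), Enpp2 (r = 0.53, p = 0.141; rho = 0.50, p = 0.178), Aqp1 (r = 0.11, p = 0.776; rho = 0.03, p = 0.948) and Prlr (r = -0.09, p = 0.834; rho = -0.12, p = 0.776), with adjusted permutation p from 0.177 for F5 and Enpp2 upward, and without the same pair of animals r was -0.10, -0.14, 0.78 and 0.49. The levels share each library's scaling, and no correlation was computed within a group. Over the 9 animals, counts of F5 and Aqp1 were all under 10, and those of Folr1, Kl, Otx2 and Slc4a5 were mostly under 10.

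**Figure D4:**
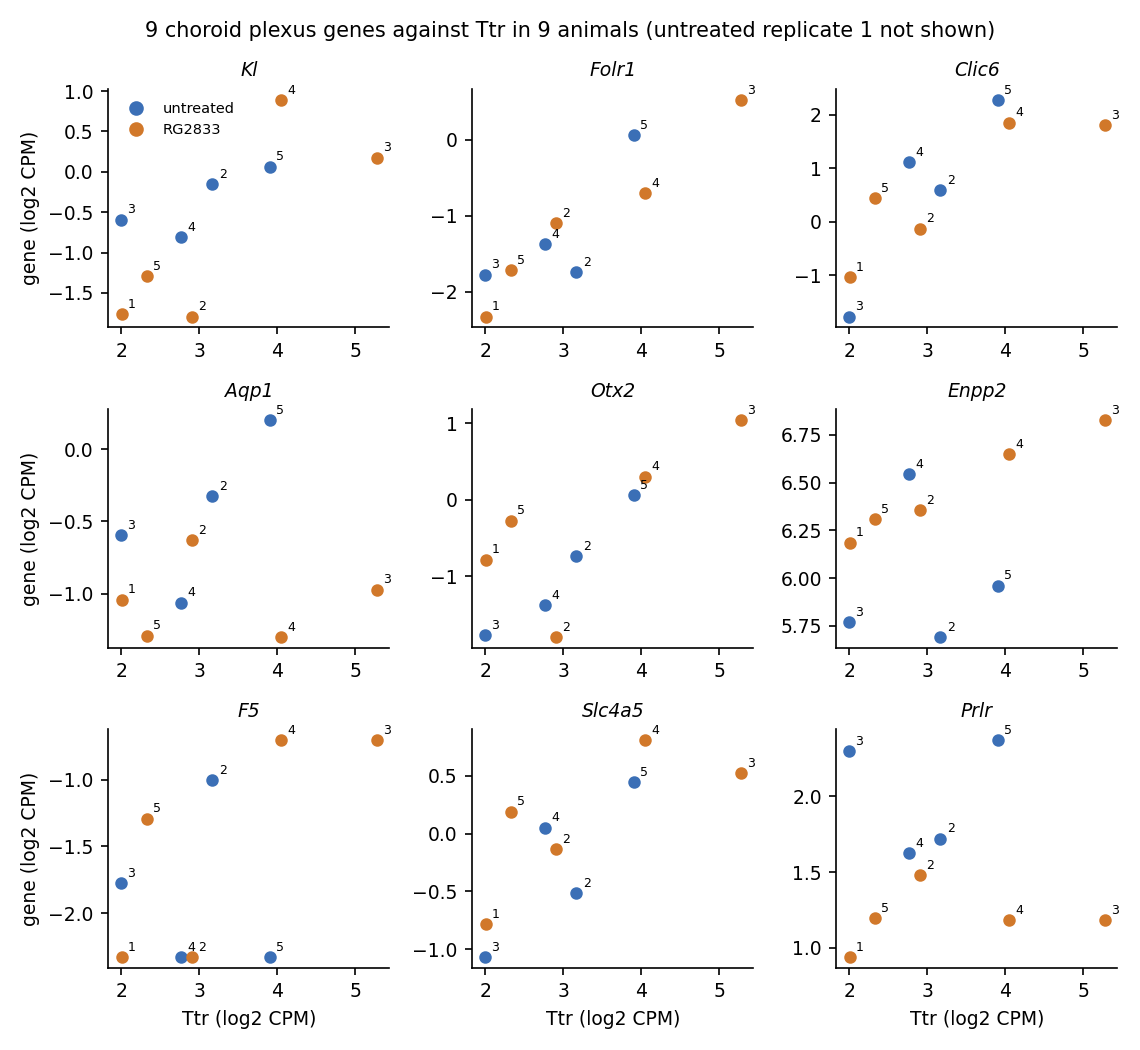
Log2 CPM of 9 choroid plexus genes against log2 CPM of Ttr in 9 animals, with replicate numbers beside the points; untreated replicate 1 is not shown. Folr1 (r = 0.92) and Clic6 (r = 0.82) rise with Ttr, whereas Aqp1 (r = 0.11) and Prlr (r = -0.09) do not over these 9; without RG2833 replicates 3 and 4, r is 0.78 for Aqp1 and 0.49 for Prlr.

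The comparison that the series states is RG2833 against untreated. With all 10 animals and edgeR's quasi-likelihood test, 1 of the 4 genes tested was called at an adjusted p under 0.05, and this was Prlr. Over all 11791 genes 5.08% were called, 2.67% lower and 2.41% higher in the RG2833 group. Prlr fell by 0.86 ± 0.21 (log2 fold change ± SE; adjusted p = 0.0394), with 3.85 ± 0.951 CPM (SD, n = 5) in the untreated group and 2.11 ± 0.310 CPM (SD, n = 5) in the RG2833 group. The groups did not overlap for Prlr, which was so for 7.27% of the tested genes (8.61% without untreated replicate 1). Without that library the fold change was -0.89 ± 0.23 with an adjusted p of 0.0653, so the size held and the call did not. The call held when untreated replicate 2 or 4 was left out and was lost, at adjusted p from 0.0520 to 0.101, when any other single animal was. The summed level of hippocampal neuron markers also differed between groups (8240 to 11446 CPM in the untreated and 12074 to 13280 CPM in the RG2833 animals), and its part in the Prlr value was not tested. With that ribosomal RNA share added as a covariate it was -0.72 ± 0.42 with an adjusted p of 1.00, and in that fit 2 genes of all tested were called. DESeq2's Wald test gave Prlr an adjusted p of 0.0129.

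Ttr was 483 ± 1061 CPM (SD, n = 5) in the untreated and 14.1 ± 14.5 CPM (SD, n = 5) in the RG2833 group. Its log2 fold change of -5.10 ± 1.75 was not called (adjusted p = 0.0998), and without untreated replicate 1, when the untreated level was 8.50 ± 4.67 CPM (SD, n = 4), it was +0.74 ± 0.63 (adjusted p = 0.531). Leaving out untreated replicate 4 in place of replicate 1 gave -5.42 ± 1.63 with an adjusted p of 0.0476, past the threshold with untreated replicate 1 kept. The difference of mean log2 CPM was -1.30 (two-sided exact permutation test, p = 0.683, with 0.00794 the smallest this design gives), and without untreated replicate 1 it was +0.35 (exact permutation p = 0.651). Clic6 had a log2 fold change of -1.81 ± 0.96 (adjusted p = 0.264) with all animals and -0.17 ± 0.75 (adjusted p = 0.925) without that library. Enpp2 had -0.47 ± 0.48 (adjusted p = 0.578) and +0.45 ± 0.18 (adjusted p = 0.174). These values depended on the model: limma-voom put Ttr at -1.19 ± 1.62, Clic6 at -0.63 ± 1.17 and Enpp2 at -0.02 ± 0.43. With the ribosomal RNA share added to the edgeR fit, Ttr was at -12.0 ± 2.90, Clic6 at -6.39 ± 1.49 and Enpp2 at -2.14 ± 0.74, none of them called (adjusted p from 0.879). Over the 9 animals the oligodendrocyte sum was 6027 to 13103 CPM in the untreated and 9408 to 12745 CPM in the RG2833 animals, and its part in the Enpp2 value was not tested.

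When the filter was dropped so that all 10 genes entered the fit, 14628 genes were tested and 3.21% were called, 1.75% lower and 1.46% higher in the RG2833 group. All 10 log2 fold changes were below 0, with a median of -2.22 beside -0.02 over all genes, and Prlr alone was called (adjusted p = 0.0464). The values were -3.92 ± 1.56 for F5 (adjusted p = 0.166), -2.95 ± 0.98 for Aqp1 (adjusted p = 0.106), -2.89 ± 1.17 for Kl (adjusted p = 0.176) and -2.63 ± 1.23 for Folr1 (adjusted p = 0.241). Without untreated replicate 1 as well, 1.39% of 14577 genes (0.885% lower and 0.501% higher) and none of the 10 were called (edgeR; 2 of the 10, Enpp2 and Prlr, had an unadjusted p under 0.05). The median was then +0.43 beside -0.01 over all genes, with 6 of the 10 above 0 and 4 below. F5 moved to +0.94 ± 1.08, Folr1 to +0.41 ± 0.90, Otx2 from -0.72 ± 0.90 to +1.05 ± 0.73, and Slc4a5 from -1.33 ± 0.81 to +0.47 ± 0.48. With all animals and the ribosomal RNA share in the fit, the 6 genes that had not passed the filter lay between -4.65 (Slc4a5) and -10.0 (F5), and none was called. Without untreated replicate 1 and that share, Kl was at -0.02 ± 0.71, and Aqp1 stayed negative at -0.91 ± 0.48 (adjusted p = 0.330). Fitted values of F5, Folr1, Kl and Aqp1 rest on counts at or near the floor in most of these animals and are no measure of size. In DESeq2 without a filter, its screen for single extreme counts left 7 of the 10 genes without a p-value (Ttr, Kl, Folr1, Aqp1, Enpp2, F5 and Slc4a5), and of the 11791 filtered genes it did so for 5: Ttr, Enpp2, Igf2, Igfbpl1 and Mfrp.

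**Figure D5:**
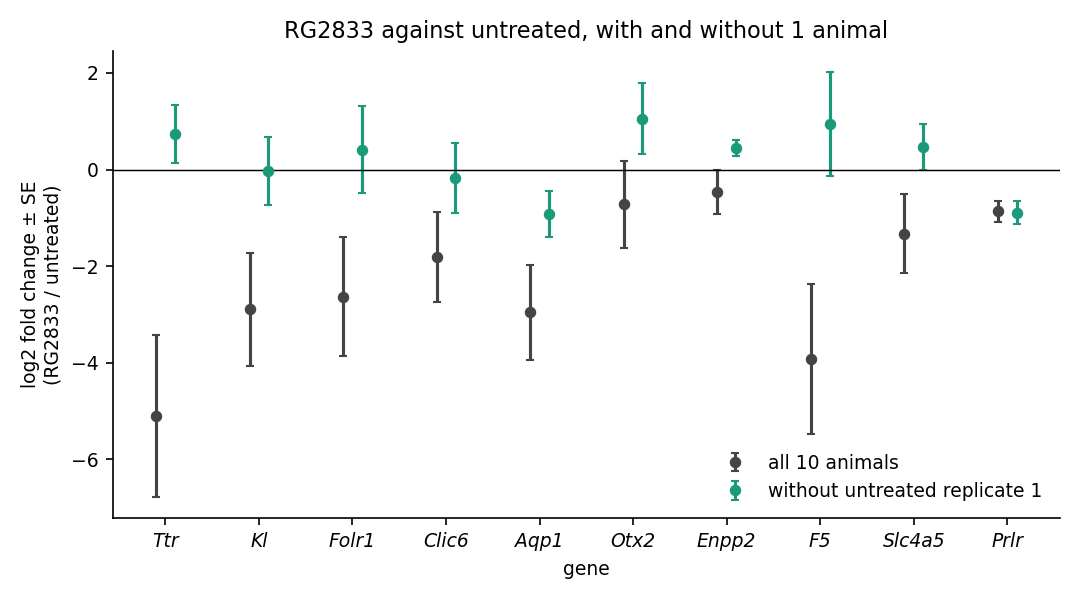
Log2 fold change of RG2833 over untreated ± SE for the 10 choroid plexus genes from edgeR fits without a filter on low counts, with all 10 animals and without untreated replicate 1. All 10 values are negative with all animals, and 6 are positive without that animal; Prlr keeps its value.

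Over 7 lists of genes that share the tissue or a pathway with the 10, 6 of 93 tested genes were called (6.45%), beside 5.08% of all genes. Some of the 10 are on these lists, Prlr among them, and without them 5 of 90 were called (5.56%). Of 21 tested genes on the further epithelium list, Bmp6 rose by 0.52 ± 0.13 (adjusted p = 0.0408) and the serotonin receptor gene Htr2c fell by 2.56 ± 0.60 (adjusted p = 0.0353). Their median was -0.41 with all animals and -0.18 without untreated replicate 1, beside medians over all genes of 0.00 in both fits. The Htr2c levels of 88.5, 38.2, 166, 9.96 and 203 CPM in the untreated and 14.2, 18.1, 19.5, 23.1 and 10.5 CPM in the RG2833 animals did not follow Ttr: untreated replicate 5 was the highest, and the groups overlapped. Among 27 tested genes of fluid secretion the kinase gene Wnk4 rose (0.47 ± 0.10, adjusted p = 0.0309), and among 17 genes of thyroid hormone and retinol handling Klf9, a thyroid hormone and glucocorticoid response gene, rose (0.62 ± 0.16, adjusted p = 0.0412). Of 5 tested klotho and FGF receptor genes Fgfr1 rose (0.77 ± 0.17, adjusted p = 0.0288), and among 9 genes of prolactin signalling Prlr was the only call. None of 14 folate genes and none of 4 autotaxin and lysophosphatidic acid receptor genes was called (edgeR). Without untreated replicate 1, 1.63% of 11832 genes were called (0.989% lower and 0.642% higher), and none of these lists or of the 4 tested choroid plexus genes was (edgeR; Prlr and Enpp2 had an unadjusted p under 0.05 among those 4).

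By likeness of pattern, the genes closest to the mean of the 4 tested choroid plexus genes over the 10 animals were Mfrp (r = 0.96), RGD1562658 (0.96), Krt8 (0.93), Serpinb1a (0.92), Depdc7 (0.91), Ttc12 (0.90), Prkcq (0.89), LOC654482 (0.88), Igf2 (0.87), Fah (0.87), Nmd3 (0.87), Nt5dc2 (0.86), Slc18a2 (0.86), Igfbpl1 (0.86) and Eral1 (0.85). The value is Pearson's r of log2 CPM with that mean, given as a description. Only genes outside the 10 that passed the filter on low counts were ranked, so Sostdc1 and Kcnj13, for example, could not appear. Over the 9 animals without untreated replicate 1, r was 0.50 to 0.85 for 14 of these 15 genes and lower for Igf2. Mfrp, which encodes a frizzled-related membrane protein, had 45.8 CPM in that animal and 0.371 to 2.48 CPM in the others, and Igf2, which encodes insulin-like growth factor 2, had 150 CPM against 21.5 to 30.5 CPM. Over the 9 other animals r was 0.80 for Mfrp and 0.10 for Igf2. Krt8 (0.83) and RGD1562658 (0.85) were among the 15 closest genes over both sets of animals.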

How the data were processed

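mRNA libraries of 10 rat hippocampi were analysed, 5 per group by label. Per the submitters' processing notes, bcl2fastq 2.17, Bowtie2 2.1.0, RSEM 1.2.15, edgeR and the build rn6 were used; the annotation is not given in the sources used here. The deposited tables hold RSEM expected counts, and a normalized signal that the authors headed as TMM CPM, per the file headers. Expected counts were rounded. Groups were compared in edgeR 4.0.16 (R 4.3.3) by its quasi-likelihood test, with TMM scaling, filterByExpr by group, no covariate and Benjamini-Hochberg adjustment over all genes tested; calls needed an adjusted p below 0.05. The SE is the log2 fold change over the square root of F. Log2 CPM used a prior count of 2. Counting intervals are 95% exact binomial intervals on 1 animal's counts against pooled counts, and cover counting error only. Across 20 pairs within groups, chi-square per degree of freedom was 4.75 to 38.3, so no library was a duplicate. The scripts were tested on simulated data.

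Alternatives were other scalings, filters and thresholds, robust edgeR, DESeq2 1.42.0, limma 3.58.1 (voom, and trend on the deposited signal), a replicate block, the ribosomal RNA share as a covariate, and leaving out each animal. Promoters came from the RefSeq GRCr8 table. The 10 genes, the lists and the tests were chosen with earlier results of these data known. All 10 genes are named; other genes are the 15 most alike, and called, defining or extreme genes of a list. Genes named for standing apart or for a high or low ratio in 1 animal, and those without a DESeq2 p-value, were chosen after their values were seen.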

Additional observations from a re-analysis of the deposited data

Results flagged for a closer look

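Within each group of 5 animals, the levels of the 10 genes in CPM were screened for 1 animal far from the rest, by the gap to the nearest animal over the group's whole range (Dixon's limit 0.71). Of 20 tests 9 passed, and all 9 were untreated replicate 1 on its high side. About 1 would pass by chance if the values were normally distributed, which was not checked for these CPM levels. The gap took 0.995 of the range for Ttr, 0.981 for F5, 0.976 for Kl, 0.936 for Folr1, 0.930 for Aqp1, 0.906 for Slc4a5, 0.865 for Enpp2, 0.854 for Otx2 and 0.806 for Clic6. Prlr passed in neither group, and no gene passed in the RG2833 group. On the log2 scale, a screen added after seeing the data, 4 of 20 passed, again in untreated replicate 1: Kl (0.831), Ttr (0.793), F5 (0.792) and Aqp1 (0.713). Enpp2 (0.695), Folr1 (0.657), Slc4a5 (0.654) and Otx2 (0.564) then lay under the limit, and for Clic6 the widest gap was at the low end, to untreated replicate 3 (0.372). The 9 tests share 1 library, so they are not independent.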

How the results depend on the processing

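Of the 10 genes 1 was called. That count was 0 with a mean count of at least 50 (which leaves out Prlr), with the replicate block, with the share of ribosomal RNA as covariate, and with no filter and without untreated replicate 1 (an alternative chosen after seeing the data). It was 2 at an adjusted p under 0.1 and 0 to 2 when each animal was left out. Prlr kept its direction in all 22 alternatives that gave it a value and its call in 12, of which 2 were among the 10 that left out an animal (-0.95 to -0.75). The count over all genes, 599, was 1286 with DESeq2, 1184 with limma-voom and sample weights, 2 with the ribosomal RNA share, 1466 at an adjusted p under 0.1, 202 with no filter and without untreated replicate 1, and 98 to 1556 when each animal was left out (193 without untreated replicate 1). Calls higher in RG2833 were 47.4% of calls, and 38.3% with library totals only.

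Directions reversed as follows, and the cause was not tested beyond the animal left out. Without untreated replicate 1, values were 0.35 for the mean log2 CPM difference of Ttr and, as log2 fold changes, 0.74 for Ttr, 0.41 for Folr1, 1.05 for Otx2, 0.45 for Enpp2, 0.94 for F5 and 0.47 for Slc4a5. With limma-voom Otx2 was at 0.0653, and with limma trend and a pseudocount of 0.1 it was at 0.0144. With sample weights Otx2 was at 0.226, Clic6 at 0.00755 and Enpp2 at 0.0557, and with the replicate block Enpp2 was at 0.0245. When each animal was left out, these values ranged from -1.95 to 0.35 for the mean difference of Ttr, and as fold changes from -5.90 to 0.74 for Ttr, -3.61 to 0.41 for Folr1, -1.30 to 1.05 for Otx2, -0.67 to 0.45 for Enpp2, -4.32 to 0.94 for F5 and -1.63 to 0.47 for Slc4a5.

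Same-numbered animals did not deviate together (r from -0.32 to 0.15, and 1 of 5 was closest to its own number). So few animals cannot settle whether the numbers pair them. With the replicate block 180 genes and 0 of the 10 were called, Prlr was at -0.84 (adjusted p = 0.0919), Enpp2 at 0.0245 and Ttr at -0.54, and the exact permutation test of Ttr within pairs gave p = 0.688. Depth limited the comparison for 6 of the 10 genes, which the filter removed; the remaining 9 animals had at most 18 counts of each.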
